A study of Mus musculus with 16 samples.

Results

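The subunits of oxidative phosphorylation, the 4 protein complexes of the respiratory chain and the ATP synthase, were followed in mouse kidney RNA from both of the genomes that encode them. Members were taken by gene symbol. For the nuclear genome these were the symbols that begin with Nduf and a, b, c, s or v, Sdha to Sdhd, and those that begin with Uqcr, Cox4 to Cox8 or Atp5. For the mitochondrial genome these were the protein-coding symbols, which begin with mt-Nd, mt-Co, mt-Atp or mt-Cytb. Symbols that end in -ps were left out. Of 57186 gene entries, 115 matched, and all but 4 of these, 98 nuclear and 13 mitochondrial, held at least 100 counts summed over all libraries. In all, 25408 genes reached that minimum. The nuclear members comprised 41 complex I genes, 8 complex I assembly factors named Ndufaf, 4 complex II, 8 complex III, 19 complex IV and 18 complex V genes. The mitochondrial members comprised 7 genes of complex I, 1 of complex III, 3 of complex IV and 2 of complex V. The matched entries below the minimum were Ndufb11b with 3 counts and, with 0 counts each, Cox7b2, Cox8c and a second entry of Atp5po. The 5 members Ndufs6b, Ndufb4c, Ndufa11b, Cox6c2 and Ndufb4b are annotated as pseudogenes or as non-coding RNA, and 106 members as protein-coding.

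The libraries came from the kidneys of 16 male mice on the C57BL/6J background, each mouse 16 weeks old and fasted before collection, with 4 mice in each of 4 labelled groups. All mice, the controls included, were homozygous for the Elmo1H allele, which the study describes as overexpressing Elmo1, so no group had wild-type Elmo1. Non-diabetic mice (ND) were Elmo1H/HIns2+/+ and diabetic mice (D) were Elmo1H/HIns2A/+, where A is the Akita allele, a germline point change of Ins2 that is present in all cells, causes loss of insulin-producing beta cells and cannot be read from gene counts. The groups ND_C and D_C received no vitamin, and ND_B12 and D_B12 received vitamin B12 at 10 mg per kg per day in the drinking water from 8 weeks of age. The labels record 16 weeks on B12, although only 8 weeks separate the stated start from the stated age. The comparisons asked how diabetes and B12 related to kidney gene expression.

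Electrons from NADH enter the chain at complex I and those from succinate at complex II, then pass through ubiquinone, complex III, cytochrome c and complex IV to oxygen, while complexes I, III and IV move protons across the inner mitochondrial membrane and complex V uses their return to make ATP. Complexes I, III, IV and V are built from subunits of both genomes, and complex II from nuclear subunits alone. The mitochondrial genes are read as long joint transcripts that are then cut into separate RNAs, so the 13 genes are not 13 independent observations. The proximal tubule of the kidney reabsorbs most of the filtered salt and glucose, and relies on oxidative phosphorylation to do so.

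A check of the labels limits every direction and p-value given here. Over 181 genes, the mean of each labelled group was compared with a table of group means that accompanies the data. Of the libraries, 5 belonged to the set of 4 that lay nearest to the group of their own label and 11 to the set of another group. The set nearest to the tabulated untreated diabetic mean consisted of the 4 libraries labelled D_B12, with a median absolute log2 difference of 0.000223 against 0.297 for the libraries labelled D_C. The set nearest to the tabulated B12-treated diabetic mean consisted of D_C 2, D_C 3, D_C 4 and ND_B12 4. For the untreated non-diabetic mean it consisted of ND_C 1, ND_C 2, ND_C 4 and ND_B12 1, and for the B12-treated non-diabetic mean of ND_C 3, ND_B12 2, ND_B12 3 and D_C 1. D_C 1 thus fell in a non-diabetic set and ND_B12 4 in a diabetic one, so the mismatch touches every comparison of diabetic with non-diabetic libraries and both B12 comparisons. Groups here are those of the labels, nothing was reassigned, and each direction between groups holds for the libraries as labelled. The dates in the library names run in the order of the labelled groups, with ND_C up to day 14, ND_B12 up to day 21, D_C up to day 58 and D_B12 from day 63 on, so date and group cannot be told apart beyond a fit with date as a term. No date held libraries of both D_C and D_B12. Library totals ran from 65271308 to 91771136 estimated counts, and the correlation between libraries from 0.966 to 0.981 over 120 pairs. Each kidney came from a different mouse, so p-values measure the spread between mice that share a label. Dates differ within groups, and where a label is wrong that spread also holds differences of genotype or treatment. In whole kidney, fewer cells of a type and less RNA per cell cannot be told apart.

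The mitochondrial genes took a far larger part of the counts than the nuclear members. The 13 mitochondrial genes held 8.32 to 13.1% of all counts of a library, and the 98 nuclear members 1.5 to 1.79%. In ND_C the mitochondrial share was 10.7, 11.6, 11.9 and 11.7%, and in ND_B12 it was 11.0, 10.6, 11.6 and 11.1%. In D_C it was 11.3, 11.7, 8.32 and 11.5%, and in D_B12 it was 12.5, 12.4, 12.8 and 13.1%. All 4 libraries labelled D_B12 lay above the other 12, whose highest share was 11.9%, and D_C 3 lay below the rest. The mean was 12.7% ± 0.319 (SD, n = 4) in D_B12 and 10.7% ± 1.6 (SD, n = 4) in D_C, or 11.5% ± 0.188 (SD, n = 3) in D_C without D_C 3. The ratio of mitochondrial to nuclear member counts was 7.39 to 8.07 in D_B12 and 4.86 to 7.58 in the other 12 libraries, so the ranges of this ratio overlapped.

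**Figure D1:**
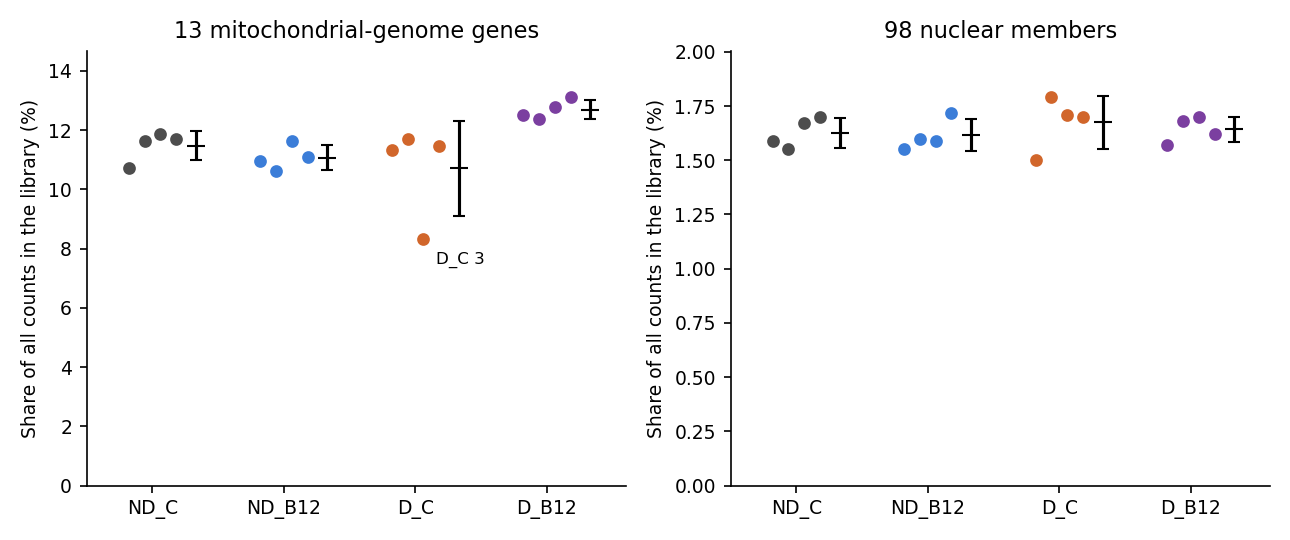
Share of all estimated counts (percent, vertical axis from 0) held by the mitochondrial-genome members and by the nuclear members in each library, by labelled group, with black marks for the mean ± SD (n = 4). The 4 D_B12 libraries sit between 12.4 and 13.1% for the mitochondrial genome, above the other 12, D_C 3 sits at 8.32%, and the nuclear members stay between 1.5 and 1.79% in all libraries.

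Levels between genes are given as normalized counts per kilobase of transcript, averaged over the 16 libraries (± SD over them). The mitochondrial genes filled the upper ranks. The highest was mt-Co1, the catalytic core of complex IV, at 1693164 ± 169585, followed by mt-Cytb, the cytochrome b of complex III, at 1018035 ± 103017. As counted, the lowest mitochondrial gene was mt-Nd3 at 255656, and the highest nuclear gene was Atp5f1b, the catalytic beta subunit of ATP synthase, at 91869. These levels leave out reads counted for near-identical nuclear copies. The copy of mt-Nd3 carried 0.987 to 0.994 counts per count of the gene, and that of mt-Nd6 only 3 to 23 counts a library. The order among the mitochondrial genes, the ranks of mt-Nd3 and mt-Cytb included, is therefore uncertain. Nuclear medians were alike for the complexes that transfer electrons to oxygen and make ATP, at 11820 for complex III, 11959 for complex IV and 11344 for complex V. They were lower for complex II at 9250 and complex I at 6294, and lowest for the complex I assembly factors at 888.4, proteins that help build the complex and are not part of it. Within complex I the levels ran from Ndufb8 at 19856 down to the pseudogene Ndufa11b at 43.39. Within the assembly factors they ran from Ndufaf4 at 1330 to Ndufaf5 at 261.5, within complex II from the flavoprotein Sdha at 17702 to the iron-sulphur subunit Sdhb at 4243, and within complex III from Uqcr10 at 21460 to Uqcrq at 9624. Within complex IV they ran from Cox8a at 53710 to Cox4i2 at 32.13, and within complex V from Atp5f1b to Atp5mj at 2108. Ndufb4 with its 2 copies Ndufb4b and Ndufb4c had levels of 5393, 5207 and 5630 per kilobase, and how reads were divided among such copies is uncertain.

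Several mitochondrial genes have near-identical copies in the nuclear genome, which counted reads of their own. The first 150 bases of mt-Co2, mt-Nd3 and mt-Nd6 are shown with their nuclear copies because they span the cases from identical to separable. They are read from GRCm39 in the 5′ to 3′ direction of the gene, and capitals mark bases of the copy that differ from the mitochondrial gene. The windows are chrM:7013-7162 (+) for mt-Co2, chr1:24654497-24654646 (−) for Gm28661, chr2:22477825-22477974 (−) for Gm13341, chrM:9459-9608 (+) for mt-Nd3, chr1:24652051-24652200 (−) for Gm28438, chrM:13921-14070 (−) for mt-Nd6 and chr4:79922002-79922151 (−) for Gm11408.
mt-Co2: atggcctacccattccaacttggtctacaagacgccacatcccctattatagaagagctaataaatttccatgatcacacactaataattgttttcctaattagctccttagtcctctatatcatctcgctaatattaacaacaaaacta
Gm28661: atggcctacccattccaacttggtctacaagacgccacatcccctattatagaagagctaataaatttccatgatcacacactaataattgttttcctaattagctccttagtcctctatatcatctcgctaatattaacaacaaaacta
Gm13341: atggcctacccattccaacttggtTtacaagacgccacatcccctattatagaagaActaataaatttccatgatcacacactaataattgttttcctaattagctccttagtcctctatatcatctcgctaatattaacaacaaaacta
mt-Nd3: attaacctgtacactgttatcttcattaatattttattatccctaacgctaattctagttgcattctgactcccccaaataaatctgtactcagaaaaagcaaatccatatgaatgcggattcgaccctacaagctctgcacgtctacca
Gm28438: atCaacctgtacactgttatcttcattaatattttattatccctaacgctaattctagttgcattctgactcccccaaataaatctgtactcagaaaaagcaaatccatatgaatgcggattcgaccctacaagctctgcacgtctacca
mt-Nd6: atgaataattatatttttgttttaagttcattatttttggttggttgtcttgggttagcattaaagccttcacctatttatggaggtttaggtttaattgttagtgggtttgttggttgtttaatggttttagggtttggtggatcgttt
Gm11408: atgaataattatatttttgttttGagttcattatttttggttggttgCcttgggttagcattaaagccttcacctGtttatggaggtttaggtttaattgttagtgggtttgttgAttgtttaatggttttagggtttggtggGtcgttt
Gm28661 has 0 differences in this window, Gm28438 has 1, Gm13341 has 2 and Gm11408 has 5. Gm28661 carried 1.0 count per count of mt-Co2 in all libraries and Gm28438 carried 0.987 to 0.994 per count of mt-Nd3, whereas Gm13341 carried 0.066 to 0.084 per count of mt-Co2 and Gm11408 only 3 to 23 counts a library. The copies of mt-Co3, mt-Atp6 and mt-Nd4l carried about as many counts as the gene itself, with median ratios of 1.0, 1.026 and 1.0, and that of mt-Nd4 carried 0.44. For mt-Co1, the copy Gm29216, which matched over 483 bases at 99.79% identity, carried 0.095 to 0.127 per count of the gene, and Gm13340, which matched over 1545 bases at 97.61%, carried 0.032 to 0.048. The ratios did not follow identity alone, since Gm28438 matched mt-Nd3 at 99.71%. Copies of mt-Nd2, mt-Nd5, mt-Nd6 and mt-Cytb carried at most 0.003 per count of the gene, and no copy of mt-Nd1 was found among the annotated genes searched. In all, 15 copies held 2.49 to 3.77% of a library's counts. The counts of mt-Co1, mt-Co2, mt-Co3, mt-Atp6, mt-Nd3, mt-Nd4l and mt-Nd4 are therefore uncertain by the share given to the copies, and the tests were repeated with each copy's counts added to its gene.

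In the diabetic kidneys, all 13 mitochondrial genes had higher values under the label D_B12 than under D_C, by 0.21 (mt-Nd4l) to 0.42 (mt-Nd3) on the log2 scale with a median of 0.261, while the median over all genes tested was 0.0. In edgeR's quasi-likelihood test no member passed an adjusted p of 0.05, and neither did any of the 25408 genes (0.0%). At an unadjusted p below 0.05, 12 of the 13 mitochondrial genes were higher, against 6.44% of all genes higher and 13.6% in either direction. The remaining gene, mt-Nd1, had an edgeR p of 0.0759 before adjustment. In DESeq2, 2.64% of all genes passed the adjusted threshold, and among them were 4 mitochondrial members, mt-Nd3, mt-Nd6, mt-Atp6 and mt-Cytb, with adjusted p of 0.004461, 0.005439, 0.03695 and 0.03091. The proximal tubule marker sum ranged from 1637638 to 2204754 normalized counts in D_C and from 1808755 to 2119792 in D_B12, with 5 of 10 markers higher and 5 lower. The thick ascending limb sum ranged from 339326 to 450253 in D_C and from 266194 to 318522 in D_B12, without overlap, and its part in the mitochondrial difference was not tested.

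mt-Nd3 is a membrane subunit of complex I at the junction of its arms. Its normalized counts were 81656, 90656, 97682 and 91317 in ND_C, 90117, 81788, 84006 and 83046 in ND_B12, 69434, 96180, 67019 and 77174 in D_C, and 99505, 105736, 97174 and 111022 in D_B12. D_B12 lay above D_C without overlap, and 1 ND_C library lay above the lowest D_B12 library. The log2 difference between D_B12 and D_C was 0.42 ± 0.10 (SE; edgeR adjusted p = 0.0974). mt-Nd6, another membrane subunit of complex I, is the one member encoded on the light strand. Its normalized counts were 142534, 159709, 163108 and 166633 in ND_C, 164484, 141128, 161674 and 174470 in ND_B12, 154670, 169155, 127668 and 147745 in D_C, and 199413, 180312, 195906 and 194668 in D_B12. All D_B12 libraries lay above all 12 others, which held for mt-Nd6 and for mt-Nd5, the gene it overlaps on the opposite strand. The share of all genes with D_B12 apart from all 12 others is not given, here or for genes named below. The log2 difference of mt-Nd6 between D_B12 and D_C was 0.36 ± 0.09 (SE; edgeR adjusted p = 0.102). Values for D_B12 and D_C did not overlap for 9 of the 13 mitochondrial genes, all higher in D_B12, against 3.4% of all genes higher without overlap. The others were mt-Nd1, mt-Nd2, mt-Co2 and mt-Atp8.

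**Figure D2:**
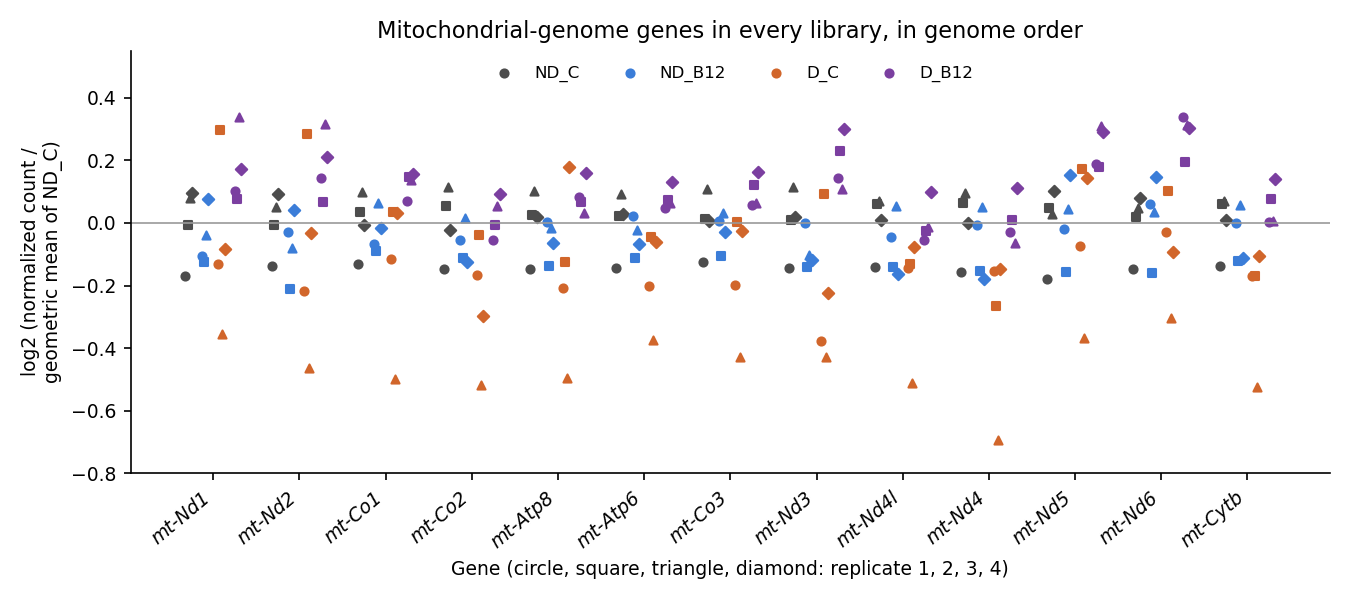
log2 ratio of each library's normalized count to the geometric mean of the ND_C libraries (vertical axis) for the 13 mitochondrial genes in genome order (horizontal axis), coloured by labelled group and with 1 symbol shape per replicate number. D_C 3 (orange triangles) is the lowest library for all 13 genes, and the D_B12 libraries (purple) lie above all others for mt-Nd5 and mt-Nd6.

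The size of this difference depended on the libraries labelled D_C 3 and D_C 2. D_C 3 had the lowest value of all 16 libraries for each of the 13 mitochondrial genes. Without D_C 3 all 13 genes were still higher in D_B12, with a median of 0.185, and 7 had an unadjusted p below 0.05 (5.84% of all genes higher), with a lowest adjusted p of 0.169. Without D_C 2 the median was 0.328 and mt-Nd3 passed with a log2 difference of 0.55 and an adjusted p of 0.02018. With the counts of the nuclear copies added, the median was 0.2609, 12 genes had an unadjusted p below 0.05 and the lowest adjusted p was 0.09847. With date as a term, all 13 were higher with a median of 0.2996, 3 had an unadjusted p below 0.05 and the lowest adjusted p was 0.1342.

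Without B12, all 13 mitochondrial genes had lower values in D_C than in ND_C. Their median log2 difference was −0.155, from −0.30 (mt-Nd4) to −0.02 (mt-Nd5), and −0.003 over all genes. None passed the edgeR adjusted threshold, which 1.66% of all genes did, and none passed in DESeq2. At an unadjusted p below 0.05, 5 were lower (mt-Co2, mt-Nd3, mt-Nd4l, mt-Nd4 and mt-Cytb), against 9.28% of all genes lower. Without D_C 3 the median was −0.0792, 3 of the 13 genes were higher in D_C, and mt-Nd4 alone had an unadjusted p below 0.05. In the B12-treated mice all 13 were higher in D_B12 than in ND_B12, with a median of 0.136 and a range of 0.07 to 0.28. There, mt-Nd3 and mt-Nd6 had an unadjusted p below 0.05 (7.79% of all genes higher) with adjusted p of 0.144 each, and 8 genes were higher without overlap (5.1% of all genes). In DESeq2 mt-Nd6 passed, by 0.26 on the log2 scale (adjusted p = 0.04913), a comparison in which DESeq2 called 4.68% of all genes. These comparisons share libraries, so their counts are not independent of each other.

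The interaction, the diabetes effect in B12-treated mice minus that in untreated mice, tests whether these 2 effects differed, sign included. It was above 0 for all 13 mitochondrial genes, whose median diabetes effects had opposite signs (0.136 and −0.155). Its median was 0.288 (−0.003 over all genes), from 0.25 for mt-Nd5 to 0.51 ± 0.14 (SE) for mt-Nd3. No gene among the 25408 passed the adjusted threshold in edgeR (0.0%), and mt-Nd3 had an adjusted p of 0.101. At an unadjusted p below 0.05 the interaction was above 0 for 8 of the 13 (8.01% of all genes) and for 6 without D_C 3. In DESeq2, where 3.71% of all genes passed, mt-Nd3 was the mitochondrial gene that did (adjusted p = 0.01459). In non-diabetic mice, B12 went with small differences of both signs, 2 genes higher and 11 lower, with a median of −0.046 and 0 of 13 at an unadjusted p below 0.05 in edgeR (7.62% of all genes). Neither edgeR (0.0% of all genes) nor DESeq2 called a member there. Averaged over treatments, diabetes gave a median of −0.005 with 6 genes higher and 7 lower, and 0 of 13 at an unadjusted p below 0.05 in edgeR (19.4% of all genes), and neither edgeR nor DESeq2 called any of the 13.

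The make-up of the mitochondrial RNA was steady for some genes and differed between groups for others, as shares of the mitochondrial counts that were not tested. mt-Co1 held a mean of 28.3% in ND_C, 28.5% in both B12 groups and 28.7% in D_C. mt-Co2, the subunit of complex IV that receives electrons from cytochrome c, held 5.37 to 5.70% in ND_C and 5.11 to 5.28% in D_B12, without overlap. Its mean was 5.21% in D_C and 5.20% in D_B12, with overlapping ranges. mt-Nd4 held a mean of 9.30% in ND_C and 8.35% in D_C, with overlapping ranges, and 8.07 to 8.95% in D_B12 against 9.11 to 9.49% in ND_C. mt-Nd5 held a mean of 11.2% in ND_C and 12.2% in D_B12, without overlap. The gap was narrow, with a highest ND_C share of 11.8% and a lowest D_B12 share of 11.81%. D_C also held a mean of 12.2% for mt-Nd5, from 11.77 to 12.65%. mt-Nd6 held means of 1.71% in ND_C and 1.92% in D_B12, without overlap. Shares of mt-Nd6 in D_B12, from 1.818%, overlapped those of ND_B12 and D_C, which reached 1.915 and 1.919%. Shares of mt-Atp6, mt-Nd4l and mt-Cytb were also lower in D_B12 than in ND_C without overlap. The remaining mitochondrial genes overlapped between these groups. ND_C and D_B12 differ in both diabetes and B12, the shares are not independent of each other, and no like share over all genes is given.

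The nuclear members, by contrast, showed medians near 0 in most comparisons, and their differences were small. In D_B12 against D_C, 52 of 98 were higher and 46 lower, with a median log2 difference of 0.005, and 5 had an unadjusted p below 0.05, against 13.6% of all genes. In D_C against ND_C, 33 were higher and 65 lower, with a median of −0.048, and 9 had an unadjusted p below 0.05, against 18.6% of all genes. In D_B12 against ND_B12, 48 were higher and 50 lower, with a median of −0.002, and 3 had an unadjusted p below 0.05, against 17.0% of all genes. Averaged over treatments, 9 had an unadjusted p below 0.05 with a median of −0.019, against 19.4% of all genes. The interaction had a median of 0.032, with 4 members at an unadjusted p below 0.05, against 16.1% of all genes. In ND_B12 against ND_C the median was −0.021 and 1 member had an unadjusted p below 0.05, against 7.62%. The nuclear members moved together within a library, so these counts are not independent observations. The median log2 ratio of the nuclear members to ND_C was −0.25 in D_C 1 and 0.13 in D_C 2, and 7 and 84 of the 98 were above 0 in these libraries. The mitochondrial medians of D_C 1 and D_C 2 were −0.17 and 0.00, and those of D_C 3 were −0.03 for nuclear and −0.46 for mitochondrial members, so the library low in mitochondrial RNA was near 0 for nuclear members. Without D_C 2, 30 of 98 nuclear members were lower in D_C than in ND_C at an unadjusted p below 0.05 (8.73% of all genes), with a median of −0.0884. Without D_C 2, 23 were higher in D_B12 than in D_C (7.97% of all genes), with a median of 0.0753. Leaving out D_C 1 gave nuclear medians of the opposite sign, 0.007 for D_C against ND_C and −0.037 for D_B12 against D_C. Counts at an unadjusted p below 0.05 are not given for that fit. D_C 2 had the highest nuclear median of all libraries and D_C 1 the lowest, so leaving out either shifts the nuclear results. Across mice of a group, the median SD on the log2 scale was 0.122 for the 86 nuclear members with a mean above 1000 normalized counts, 0.139 for the 13 mitochondrial members and 0.111 for all 8695 genes above that mean.

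**Figure D3:**
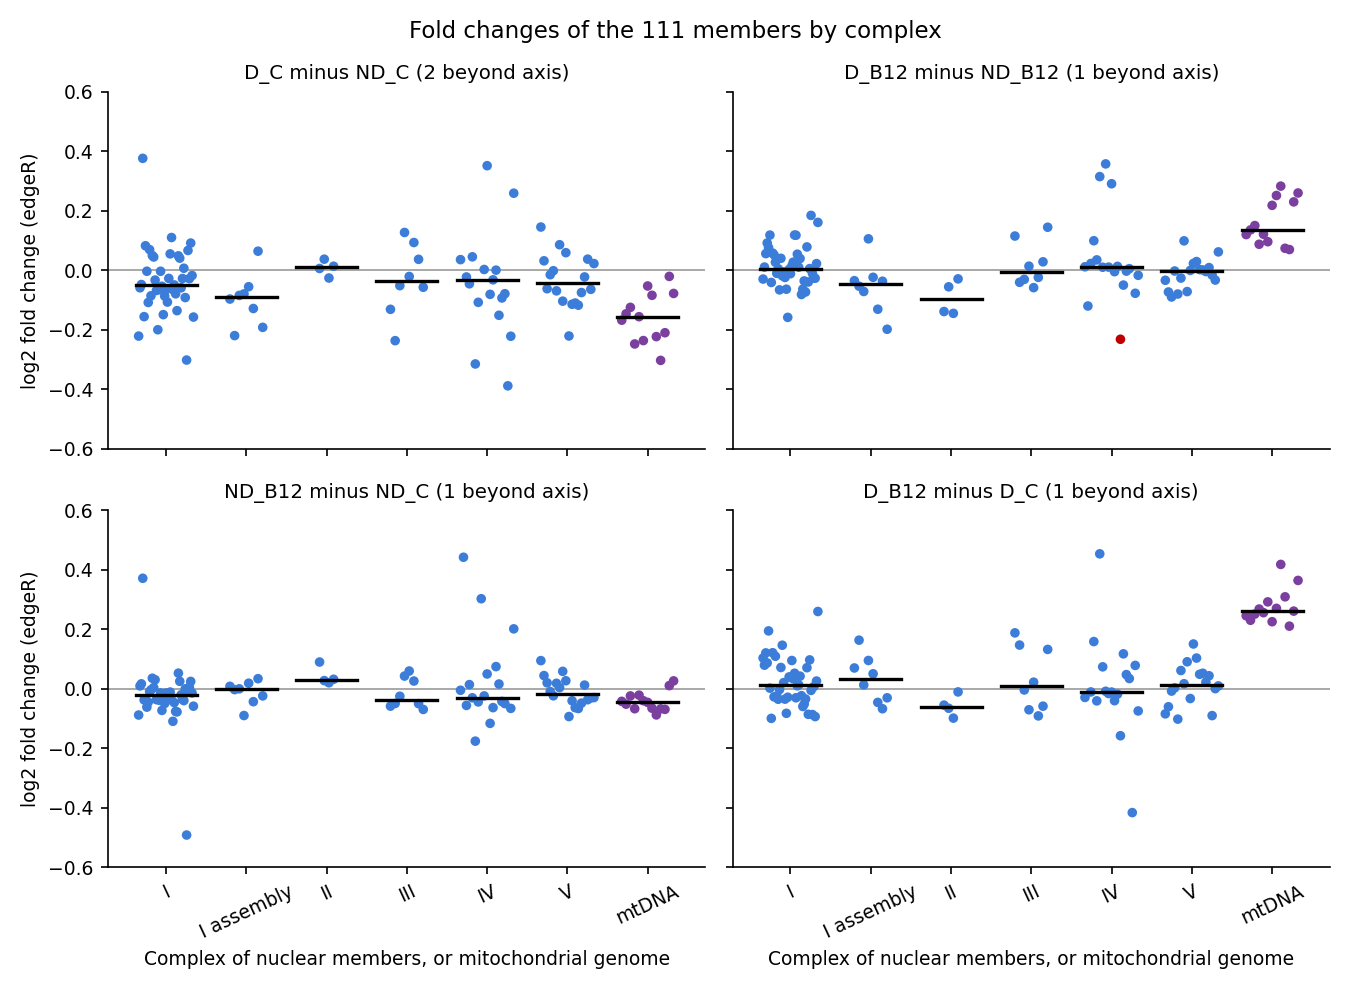
log2 fold change (vertical axes) of each member by complex and genome (horizontal axes) in 4 comparisons of labelled groups; black bars are medians, blue points nuclear and purple points mitochondrial members, and red marks an edgeR adjusted p below 0.05. Mitochondrial genes lie below 0 in D_C minus ND_C and above 0 in D_B12 minus ND_B12 and D_B12 minus D_C, the nuclear medians lie near 0, and Cox7a2l is the red point. Members beyond the axes are Cox4i2 (1.02) and Cox6b2 (0.67) in D_C minus ND_C, Cox8b (1.48) in D_B12 minus ND_B12, Cox8b (−2.28) in ND_B12 minus ND_C and Cox4i2 (−0.70) in D_B12 minus D_C.

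Among the 41 nuclear complex I genes, 12 were higher and 29 lower in D_C than in ND_C (median log2 difference −0.049), and none passed the edgeR adjusted threshold in any comparison. Those with an unadjusted p below 0.05 in D_C against ND_C were Ndufa1, a small membrane subunit needed for assembly, Ndufa12, an accessory subunit of the arm that reaches into the matrix, and Ndufb1, an accessory subunit of the membrane arm. Ndufa1 had 5146, 5071, 6130 and 5995 normalized counts in ND_C and 4617, 5190, 4778 and 4596 in D_C. Its groups overlapped through D_C 2, and the log2 difference was −0.22 ± 0.07 (SE; edgeR adjusted p = 0.0973, DESeq2 adjusted p = 0.0375). Ndufa12 had 4081, 4304, 4383 and 4623 in ND_C, 3720, 4507, 3826 and 3569 in D_C, and 4095, 4615, 4694 and 4449 in D_B12. Its D_C values were lower in 3 of 4 libraries and D_C 2 lay among the other groups, with log2 differences of −0.16 ± 0.07 (SE) for D_C against ND_C and 0.19 ± 0.07 (SE) for D_B12 against D_C, and adjusted p of 0.240 and 0.228. Ndufv3, an accessory subunit of the NADH-binding module, had 6529, 9840, 7845 and 7010 in D_C and 8722, 9185, 9578 and 9857 in D_B12. The groups of Ndufv3 overlapped through D_C 2, with a log2 difference of 0.26 ± 0.10 (SE; adjusted p = 0.285). Averaged over treatments, Ndufb3 and Ndufa1 had lower values in diabetes, by −0.15 and −0.12, with adjusted p of 0.175 and 0.164. For Ndufb7, the log2 difference was 0.11 and the adjusted p was 0.405. In non-diabetic mice, B12 went with lower values of the pseudogene Ndufs6b, by −0.49 ± 0.23 (SE; adjusted p = 0.650), whose level was 94.36 per kilobase against 5073 for its parent Ndufs6. Ndufb8 in ND_B12, from 13414 to 13711 normalized counts, lay below all ND_C libraries, from 13753 to 15617. It was the nuclear member lower without overlap there, against 2.16% of all genes, and Sdha the member higher without overlap, against 2.65%.

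Of the complex I assembly factors, 7 of 8 had lower values in D_C than in ND_C and 7 of 8 in D_B12 than in ND_B12, with medians of −0.09 and −0.044. Ndufaf8, a partner of Ndufaf5 in preparing a core subunit for assembly, fell in diabetes averaged over treatments. Its normalized counts were 904.8, 988.1, 1035 and 992.4 in ND_C, 876.7, 998.6, 1041 and 928.3 in ND_B12, 818.2, 858.8, 818.5 and 939 in D_C, and 794.5, 846.2, 853.3 and 864.8 in D_B12. D_B12 lay below ND_B12 without overlap, while 1 library of D_C lay within the range of ND_C. The average log2 difference was −0.19 ± 0.05 (SE; edgeR adjusted p = 0.0494, DESeq2 adjusted p = 0.0104), with 3.02% of all genes called by edgeR and 7.23% by DESeq2. The edgeR call was lost in 14 of 16 fits that left out 1 library, those without ND_B12 4 and D_C 4 being the exceptions, with adjusted p from 0.04395 to 0.112. Ndufaf8 lies at chr11:119989736-119991531 (+) in GRCm39 and overlaps Tepsin on the opposite strand, and strand-specific counting is not stated in the sources used here. Ndufaf2, a chaperone of late complex I assembly, had 672.2, 701.8, 626.4 and 682.4 in ND_C and 560.7, 615.5, 553.7 and 575.6 in D_C. These groups did not overlap, and Ndufaf2 was the nuclear member lower without overlap in D_C, against 4.58% of all genes. Its log2 difference was −0.22 ± 0.07 (SE; edgeR adjusted p = 0.102, DESeq2 adjusted p = 0.03346). In D_B12 against D_C the log2 difference of Ndufaf2 was 0.16 ± 0.07 (SE; edgeR adjusted p = 0.308). Ndufaf6 was lower by −0.13 averaged over treatments (adjusted p = 0.154).

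Complex II, the succinate dehydrogenase, showed lower values for all 4 genes in D_B12 than in D_C and than in ND_B12, with median log2 differences of −0.06 and −0.096. The 4 genes ran against the mitochondrial genes in these comparisons, and none passed an adjusted threshold. Sdha had 55301, 54281, 54768 and 60253 normalized counts in ND_B12 and 47058, 53375, 52754 and 51361 in D_B12. These groups did not overlap, nor did those of ND_B12 and ND_C, whose values were 52000, 51375, 54111 and 54229. Of all genes, 2.65% were higher without overlap in ND_B12 than in ND_C, and of the 98 nuclear members 1 was. The log2 difference of Sdha between D_B12 and ND_B12 was −0.14 ± 0.06 (SE; adjusted p = 0.277). Sdhc, a membrane anchor of the complex, ran from 17658 to 20159 in D_B12 and from 20584 to 21392 in ND_B12, also without overlap. In that comparison 7 of 98 nuclear members were lower without overlap, against 6.57% of all genes, so the nuclear members were near the share of all genes.

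In complex III no nuclear gene passed, and the medians lay between −0.037 and 0.013 in all 6 comparisons. Uqcr11, a small subunit of the complex, had 9623, 9761, 10962 and 10978 normalized counts in ND_C and 8341, 10903, 9082 and 6765 in D_C. D_C 2 lay within ND_C and the other 3 below it, with a log2 difference of −0.24 ± 0.11 (SE; adjusted p = 0.247). For Uqcr10 and Uqcrq, other small subunits, the log2 differences between D_B12 and ND_B12 were 0.12 and 0.15 with adjusted p of 0.551 and 0.546.

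In complex IV the one nuclear gene called was Cox7a2l, a relative of the Cox7a subunits. A role in joining complexes III and IV into supercomplexes has been described for it. Whether Cox7a2l has that role in these mice cannot be read from gene counts and was not tested. Cox7a2l was lower in the libraries labelled D_B12. Its normalized counts were 4900, 4989, 5290 and 5070 in ND_C, 5136, 5608, 5245 and 5265 in ND_B12, 5152, 5174, 5044 and 4898 in D_C, and 4513, 4751, 4450 and 4429 in D_B12. All 4 D_B12 libraries lay below all 12 others, and the remaining groups overlapped one another. The mean of D_B12 was 4536 ± 148.1, and those of ND_C, ND_B12 and D_C were 5062 ± 166.6, 5314 ± 204.5 and 5067 ± 126.2 (SD, n = 4). It fell by 0.23 ± 0.05 (SE) on the log2 scale in D_B12 against ND_B12 (edgeR adjusted p = 0.0418, DESeq2 adjusted p = 0.000249), a comparison in which 0.823% of all genes were called by edgeR and 4.68% by DESeq2. Against D_C its log2 difference was −0.16 ± 0.05 (SE; edgeR adjusted p = 0.155, DESeq2 adjusted p = 0.02489), and its interaction was −0.23 ± 0.07 (SE; edgeR adjusted p = 0.111, DESeq2 adjusted p = 0.01757). It was the nuclear member lower without overlap in D_B12 against D_C, against 3.18% of all genes, and in D_B12 against ND_B12 it was 1 of 7, with Sdhc, Atp5f1c, Ndufaf6, Ndufaf8, Sdha and Atp5mc2, against 6.57% of all genes. The edgeR call against ND_B12 was lost in 10 of 16 fits that left out 1 library (ND_C 1, ND_C 2, ND_C 3, ND_B12 2, ND_B12 3, D_C 4 and each D_B12 library), with adjusted p from 0.02876 to 0.155, and with date as a term the difference was −0.15 (adjusted p = 0.495).

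Cox7a2l lies at chr17:83765970-83824759 (−) in GRCm39 and overlaps Eml4 and Gm66623 on the opposite strand and Gm65874 and Gm66622 on its own. In the transcript counts, the shorter coding form Cox7a2l-201, with 333 coding bases, made up 50.4, 25.7, 25 and 49.8% of the gene in the ND_C libraries. It made up 49.0 to 55.4% in the ND_B12 libraries, 45.0 to 54.2% in the D_C libraries and 40.1 to 53.9% in the D_B12 libraries. The shares of D_B12 thus lay within those of the other groups, and ND_C 2 and ND_C 3 stood apart.

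**Figure D4:**
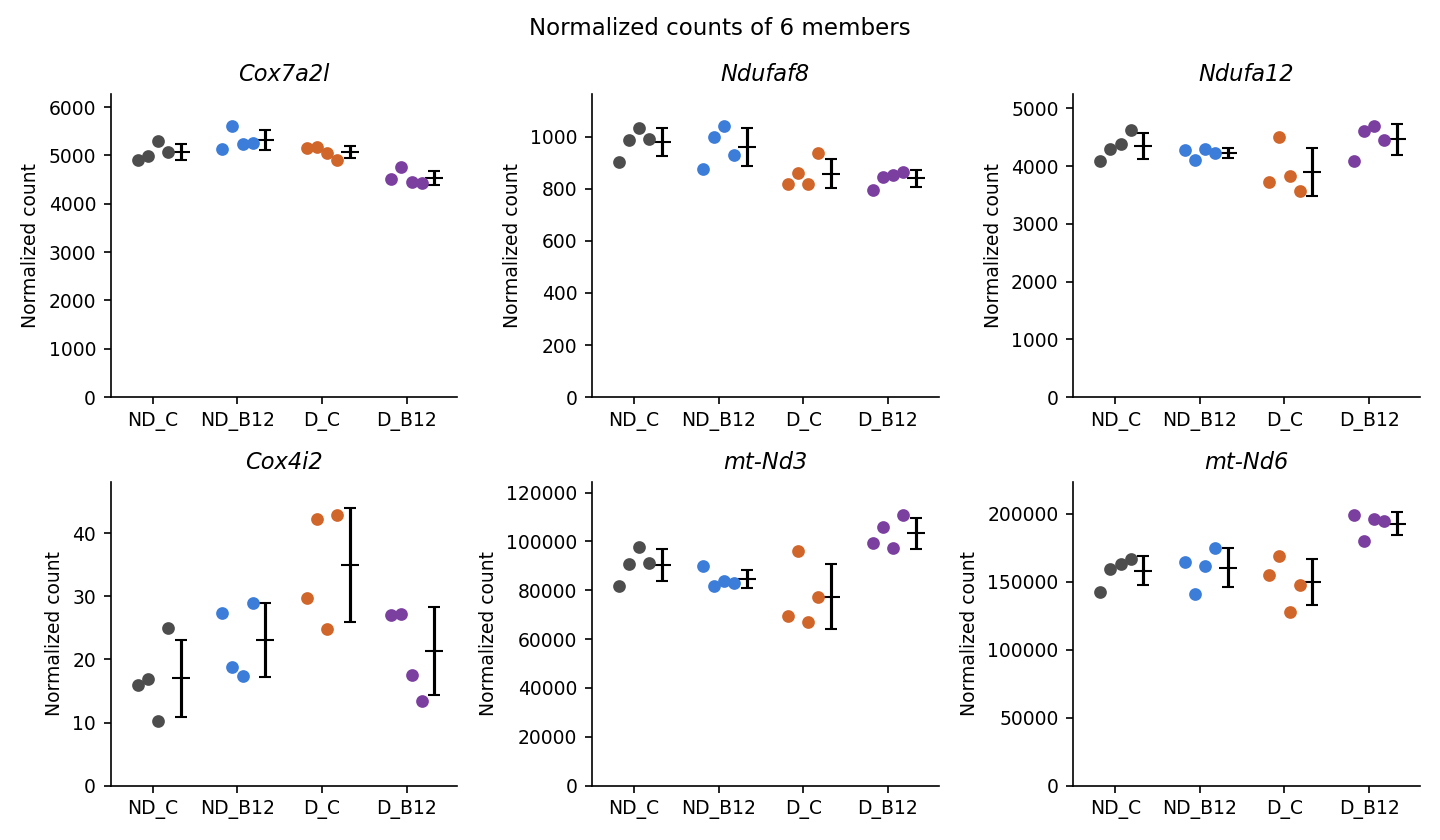
Normalized counts (vertical axes from 0) of Cox7a2l, Ndufaf8, Ndufa12, Cox4i2, mt-Nd3 and mt-Nd6 in each library by labelled group, with black marks for the mean ± SD (n = 4). The D_B12 libraries of Cox7a2l (4429 to 4751) lie below all others and those of mt-Nd6 (180312 to 199413) above all others, while the groups of Ndufa12 and Cox4i2 overlap.

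Other complex IV genes had adjusted p above the threshold in edgeR. Ndufa4, once counted with complex I and now known as a complex IV subunit, had 21163, 22300, 24522 and 24203 normalized counts in ND_C and 19493, 22206, 16981 and 20443 in D_C. The groups overlapped through D_C 2, and the log2 difference was −0.22 ± 0.07 (SE; edgeR adjusted p = 0.116, DESeq2 adjusted p = 0.04785). Ndufa4, Ndufaf2 and Ndufa1 were the 3 members that DESeq2 called in D_C against ND_C, where it called 6.44% of all genes.

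Where complex IV has alternative forms of a subunit, the widely used form held most of the RNA in these kidneys. Per kilobase, Cox4i1 stood at 52098 and Cox4i2 at 32.13, Cox6a1 at 48449 and the muscle form Cox6a2 at 54.47, and Cox6b1 at 33115 and Cox6b2, known from testis, at 363.7. Cox8a stood at 53710 and Cox8b at 60.33, Ndufa4 at 26522 and Ndufa4l2 at 208.3, and Cox7a2 at 2554 and the muscle form Cox7a1 at 923.6. The widely used forms Cox4i1, Cox6a1, Cox6b1, Cox7a2 and Cox8a had log2 differences between −0.11 and 0.07 in all 4 pairwise comparisons. Cox4i2, a form known to respond to low oxygen, had 16.0, 16.9, 10.19 and 24.95 normalized counts in ND_C, 27.29, 18.86, 17.41 and 29.01 in ND_B12, 29.65, 42.28, 24.88 and 42.95 in D_C, and 27.08, 27.21, 17.47 and 13.36 in D_B12. The D_C values were high, with D_C 3 just below the highest ND_C value. The log2 difference of Cox4i2 between D_C and ND_C was 1.02 ± 0.32 (SE; edgeR adjusted p = 0.102), that between D_B12 and D_C −0.70 ± 0.32 (SE; adjusted p = 0.341), and the interaction −1.14 ± 0.46 (SE; adjusted p = 0.229). For Cox6b2 the log2 difference between D_C and ND_C was 0.67 ± 0.31 (SE; adjusted p = 0.257), and it was 0.23 without D_C 2, where this gene had 416.3 normalized counts.

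Cox8b, a form of muscle and brown fat, varied more between mice than between groups. Its normalized counts were 43.74, 0.0, 659.2 and 115.2 in ND_C, 1.092, 11.91, 160.4 and 0.0 in ND_B12, 590.4, 14.09, 16.89 and 0.0 in D_C, and 67.21, 394.5, 0.0 and 0.0 in D_B12. Each group held libraries near 0 and at least 1 above 100. Ucp1, the uncoupling protein that defines brown adipocytes, was high in the same libraries, at 2742 in ND_C 3, 1556 in D_C 1, 1009 in D_B12 2 and 0.0 in D_C 2, D_C 4, D_B12 3 and D_B12 4. The summed level of 6 white adipocyte markers was also high in these libraries, at 14916 in ND_C 3, 12639 in D_C 1 and 19171 in D_B12 2, against 2186 to 7396 in the other 13. Plin1, which coats fat droplets, stood at 1810, 1616 and 1706 in the same 3 libraries. The summed level of 5 brown adipocyte markers spanned 1771 to 6312 among ND_C libraries, 1983 to 2574 among ND_B12, 2667 to 5371 among D_C and 1898 to 4213 among D_B12, with no marker at 0 in all libraries. Cpt1b, which carries fatty acids into mitochondria, held 1748 to 3082 of this sum in each library, and so most of it outside the libraries high in Ucp1. It was the brown adipocyte marker called higher in D_C than in ND_C (1.66% of all genes called), by 0.48 ± 0.09 (SE; edgeR adjusted p = 0.0340), while the other 4 had lower values there. The part of white or brown fat in the Cox8b level was not tested. The SE of the Cox8b log2 differences was 1.68 or more in the 4 pairwise comparisons.

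**Figure D5:**
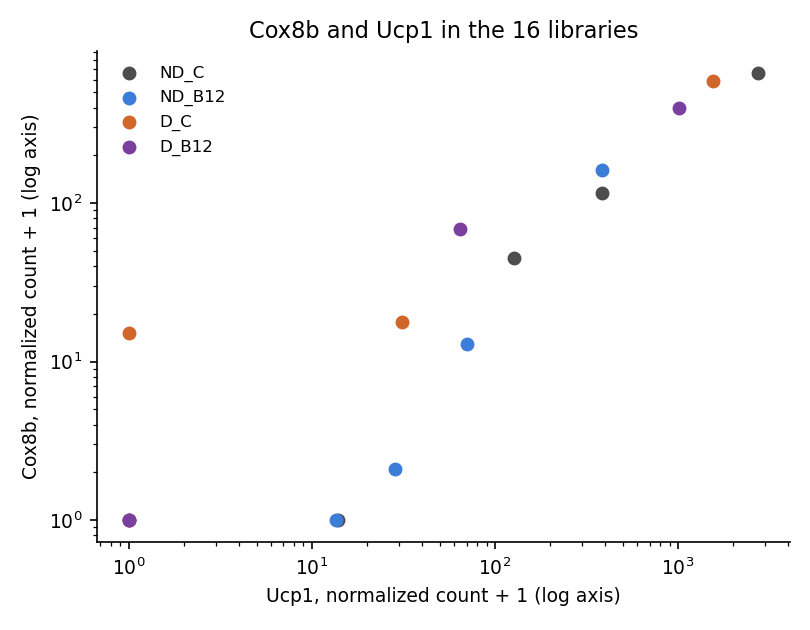
Normalized count of Cox8b (vertical axis) against that of Ucp1 (horizontal axis) in each library (both axes on a log scale of the count plus 1), coloured by labelled group. The libraries ND_C 3, D_C 1 and D_B12 2 are high on both axes, at 659.2, 590.4 and 394.5 normalized counts of Cox8b, and libraries of all 4 groups lie at the low end.

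In complex V, no gene passed and the median log2 differences lay between −0.042 and 0.013 in the pairwise comparisons. The c-ring, the rotor through which protons pass, is made by 3 genes for the same protein, of which Atp5mc3 stood at 33778 per kilobase, Atp5mc1 at 13250 and Atp5mc2 at 4801. Atp5mc2 was lower by −0.09 ± 0.04 (SE) averaged over treatments (adjusted p = 0.239), and Atp5mc1 and Atp5mc3 differed by 0.09 and 0.03. Atp5if1, the inhibitor that stops the enzyme from running backwards, stood at 10232 per kilobase, with a log2 difference of −0.07 ± 0.10 (SE) between D_C and ND_C. Atp5f1b had 145963, 187328, 188413 and 187153 normalized counts in D_C, with D_C 1 low. Atp5f1a, the alpha subunit, had a log2 difference of 0.15 ± 0.09 (SE; adjusted p = 0.433) between D_C and ND_C, which was −0.04 with date as a term.

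Genes that work with the chain were read from lists of related function. Among 24 regulators of mitochondrial biogenesis, 8 were higher and 16 lower in D_B12 than in ND_B12 (median −0.055), and 1 was called, against 0.823% of all genes. That gene was Ppara, a nuclear receptor that drives fatty acid oxidation, with 7451, 9374, 9452 and 10312 normalized counts in ND_B12 and 5218, 5967, 6249 and 5993 in D_B12. It had 6663, 7029, 7087 and 7056 in ND_C and 8392, 6975, 7617 and 6641 in D_C, so D_B12 lay below all other groups. Ppara fell by 0.65 ± 0.09 (SE) on the log2 scale in D_B12 against ND_B12 (edgeR adjusted p = 0.0169), with adjusted p between 0.00361 and 0.07852 when 1 library was left out and the call lost without ND_B12 2, ND_B12 3, D_B12 1, D_B12 2 or D_B12 3. With date as a term the call was lost too, at −0.73 (adjusted p = 0.130). Averaged over treatments it fell by 0.28 ± 0.07 (SE; edgeR adjusted p = 0.0346), a call kept without ND_B12 1, ND_B12 4, D_C 1 or D_B12 4 and lost in the other 12 fits that left out 1 library (adjusted p from 0.01099 to 0.07721), and lost with date as a term (−0.34, adjusted p = 0.397). Its interaction was −0.74 ± 0.13 (SE; adjusted p = 0.0554). In diabetes averaged over treatments, 3.02% of all genes were called. Among 18 tested electron carriers and entry points, Gpd2, the glycerol phosphate dehydrogenase that feeds electrons to ubiquinone, rose by 0.47 ± 0.11 (SE) averaged over treatments (adjusted p = 0.0357), and no other was called. Among 43 other assembly factors, Acad9, which acts in complex I assembly, fell by 0.23 ± 0.05 (SE) averaged over treatments (adjusted p = 0.0274), and no other was called. Among 17 genes of the tricarboxylic acid cycle, which supplies NADH and succinate, Idh2 fell by 0.35 ± 0.05 (SE) in D_B12 against ND_B12 (adjusted p = 0.0215) and by 0.21 ± 0.04 (SE) averaged over treatments (adjusted p = 0.0121), and no other was called. None of 12 tested genes for ADP and phosphate exchange was called, and 11 of the 12 were lower in D_B12 than in D_C, with a median of −0.121. None of these listed genes was called in either B12 comparison, in which edgeR called none of the genes tested (0.0%). Whether the calls of Gpd2, Acad9, Idh2 and of cell type markers such as Cpt1b hold in the alternative fits was not examined.

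Cell type markers differed between some of the groups. The proximal tubule marker sum spanned 2451526 to 2743120 normalized counts among ND_C libraries and 2079562 to 2675434 among ND_B12. The D_C and D_B12 ranges given above lay below that of ND_C, and both overlapped that of ND_B12. Of its 10 markers, 0 were higher in D_C than in ND_C and 1 was higher in D_B12 than in ND_B12, with 0 and 2 called lower, against 1.66 and 0.823% of all genes called in these comparisons. The collecting duct principal cell sum was 12602 to 16894 in ND_C, 19329 to 40603 in D_C and 15655 to 31986 in D_B12, and 2 of its 5 markers were called higher in D_C than in ND_C, against 1.66% of all genes called. All 6 macrophage markers were lower in D_C than in ND_C and in D_B12 than in D_C, with medians of −0.317 and −0.297 and none called. The endothelial sum was 17941 to 19728 in ND_C and 21682 to 25825 in D_C, without overlap, and all 5 markers were higher in D_C at an unadjusted p below 0.05 (18.6% of all genes in either direction) with none called. The distal convoluted tubule sum was 75365 to 83619 in ND_C and 57135 to 72283 in D_C, without overlap, although 2 of its 3 markers had higher values in D_C. Slc12a3, the salt transporter of that segment, made up most of this sum. The sums of thick ascending limb, intercalated cell and podocyte markers overlapped between D_C and ND_C. Skeletal muscle sums were 48.71 to 215.2 and adrenal sums 299.2 to 564.8, with 1 of 8 and 3 of 7 of these markers at 0 throughout. The part of these cell types in the results on oxidative phosphorylation genes was not tested.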

How the data were processed

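Kidney RNA of 16 mice was sequenced as paired 50 bp reads. The authors aligned the reads with STAR to GRCm39 with GENCODE vM35, ran StringTie and its prepDE script, and deposited an estimated count per gene and per transcript. These counts were already whole numbers, and 0 columns lacked a sample. Genes with at least 100 counts in total (25408 of 57186) were tested in R 4.3.3 with edgeR 4.0.16 (glmQLFit, glmQLFTest, TMM), in a single fit of the 16 libraries that estimates each labelled group's mean and leaves 12 residual degrees of freedom. P-values were two-sided and adjusted by Benjamini-Hochberg over all genes tested, with a threshold of 0.05. Normalized counts are counts divided by the median-of-ratios size factors of DESeq2 1.42.0, which was also the alternative test. Levels per kilobase sum the normalized transcript counts over transcript lengths of GENCODE vM39, and log2 differences are edgeR estimates with a prior count of 0.125. The scripts were tested on simulated data.

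Members and lists were chosen with earlier results of these data known. The genes named are all mitochondrial members, the 3 nuclear members with the smallest p in each direction of each comparison, isoform pairs, c-ring genes and Atp5if1, the highest and lowest member per complex, and regulators called. Other members named have an unadjusted p below 0.05 or groups that do not overlap, and called genes of the other lists are named too, all chosen after their values were seen. Alternatives were other normalizations, filters, DESeq2, date and replicate number as terms, the compared groups alone, each library left out and, added after seeing the data, nuclear copies summed with their mitochondrial gene. Depth was at least 65271308 counts in each library, and p-values rest on the spread between mice that share a label.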

Additional observations from a re-analysis of the deposited data

Results flagged for a closer look

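Of 208 groups of 4 libraries examined for 50 named genes, the mitochondrial share and the nuclear member share, 11 (5.29%) held a highest or lowest library whose gap to the nearest other exceeded Dixon's 95% limit, and chance alone gives about 1 in 20. The values were those of Ppara in ND_C 1 at 6663 normalized counts, Sdha in ND_B12 4 at 60253, Cox8b in ND_B12 3 at 160.4, mt-Nd4l in D_C 3 at 110625, Cox6b2 in D_C 2 at 416.3 and Cox8b in D_C 1 at 590.4. Those of Atp5f1b in D_C 1 at 145963, Uqcr10 in D_B12 1 at 10233, Cox8b in D_B12 2 at 394.5 and Sdhb in D_B12 1 at 14663 normalized counts also exceeded it. The mitochondrial share of D_C 3, at 8.32% of its counts, was the remaining one.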

How the results depend on the processing

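The mitochondrial median in D_B12 against D_C stayed above 0 in all alternatives run, from 0.185 without D_C 3 to 0.328 without D_C 2. DESeq2 called 3 nuclear members in D_C against ND_C, 2 in diabetes averaged over treatments, 1 in D_B12 against D_C and 1 in the interaction. It called 1 mitochondrial member in D_B12 against ND_B12, 4 in D_B12 against D_C and 1 in the interaction. In D_B12 against ND_B12, 0 nuclear members were called with upper-quartile normalization, with no filter beyond 1 count, with date as a term or with the compared groups alone. For the average over treatments, 0 were called with upper-quartile normalization, normalization on nuclear-genome genes, no filter or date as a term. With date as a term the nuclear medians were −0.118 in both of these comparisons, and Atp5f1a reversed to −0.04 in D_C against ND_C. The cause of these changes was not tested. Leaving out each library gave 0 to 1 nuclear calls for each of these 2 comparisons (0 in 10 and 13 of 16 fits), and 0 to 1 mitochondrial calls in D_B12 against ND_B12, in D_B12 against D_C and in the interaction, with the 1 call made without D_C 2. Adding the copies raised the mitochondrial share to 10.81 to 16.88%. For single named genes, 524 of 550 other values kept direction and side of the threshold, most of them for results not called in the main fit. A call of the main fit was lost in 14, a call was gained in 11 and the direction reversed in 1. Fits that left out 1 library lost a call of the main fit in 41 further values. The calls lost were those of Cox7a2l, Ndufaf8 and Ppara.

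Replicate numbers did not pair the libraries. Deviations of same-numbered libraries correlated at −0.27 to 0.26, and 5 of 16 libraries correlated best with their own number. With the replicate block, 0 nuclear members were called in D_B12 against ND_B12 and 0 averaged over treatments, and no other count of calls changed.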
